A study of Mus musculus with 6 samples.

Results

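The genes described here are 33 genes of glycolysis and of the response to low oxygen, taken by symbol from the 17189 genes of a count table. They were measured by RNA sequencing in ureteric bud (UB) cells, the branching epithelium that forms the collecting ducts of the kidney, isolated by FACS from E16.5 mouse embryos. The 3 conditional knockout (cKO) libraries came from embryos with the genotype Hoxb7Cre-GFP+, Ash2l F/F, and the 3 control libraries from embryos with the genotype Hoxb7Cre-GFP+, Ash2l F/+. Both groups thus carried a floxed allele and the Cre-GFP transgene, which the Hoxb7 promoter drives in the UB lineage, and control cells kept 1 allele that Cre cannot recombine. No embryo was treated, and the labels do not say whether a library is 1 embryo or a pool. ASH2L is needed by the enzyme complexes that place methyl groups on histone H3 near active genes, and the comparison asks which genes differ in UB cells when it is lost.

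Glycolysis splits glucose into pyruvate in a chain of enzymes, most of which exist as several paralogs encoded by separate genes. Pyruvate then either enters the mitochondria or is reduced to lactate. When oxygen is low, the transcription factor subunit HIF1A escapes hydroxylation by the EGLN enzymes and degradation, and it induces glucose transporters, glycolytic enzymes, the angiogenic factor VEGFA and a set of mitochondrial and matrix genes. The fetal kidney develops at low oxygen, so this programme is part of its normal setting.

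Of the 33 genes, 32 passed the filter on low counts and were tested, and Car9 did not. With all 6 libraries 4 of the 32 rose in cKO cells (12.5%): Aldoc, Ankrd37, Pfkfb3 and Bnip3l. Over all genes tested 3.52% rose by the same rule (edgeR quasi-likelihood test, adjusted p under 0.05 over all genes). Tpi1 and Ldha fell, 2 of 32 (6.25%), where 3.59% of all genes fell. The median log2 fold change of the members was -0.068, against -0.036 over all genes tested. Members moved in both directions, and their values are described by role. Since RNA came from bulk sorted cells, fewer cells of a type and less RNA per cell cannot be told apart.

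The calls depend on which libraries enter the fit. Without cKO replicate 3, 5 members rose and 7 fell among 33 tested, where 13.7% and 14.9% of all genes did, so that the share of members that rose (15.2%) was near the background and the share that fell (21.2%) above it, with no test of either share. Vegfa was the added rise, and Gapdh, Pkm, Ldhb, Bnip3 and Ndrg1 were the added falls. Without cKO replicate 1 Aldoc and Ankrd37 rose and Tpi1 fell, and without control replicate 2 Tpi1 alone fell. Without cKO replicate 2, control replicate 1 or control replicate 3, edgeR called 0 members. At an unadjusted p under 0.05 these fits had 5, 5 and 6 members higher and 5, 8 and 4 lower, in that order. The share of all genes at that unadjusted p is not given here, so these counts have no background to be set against. Every fit that left out a library other than cKO replicate 3 also called fewer genes of all kinds. The number went from 928 with 6 libraries down to 121 without control replicate 3. In CPM (read counts scaled to library size with TMM factors), 5 of 32 members lay above every control library in every cKO library, where 16.7% of all genes did, and 7 of 32 lay below, where 20.7% did.

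**Figure D1:**
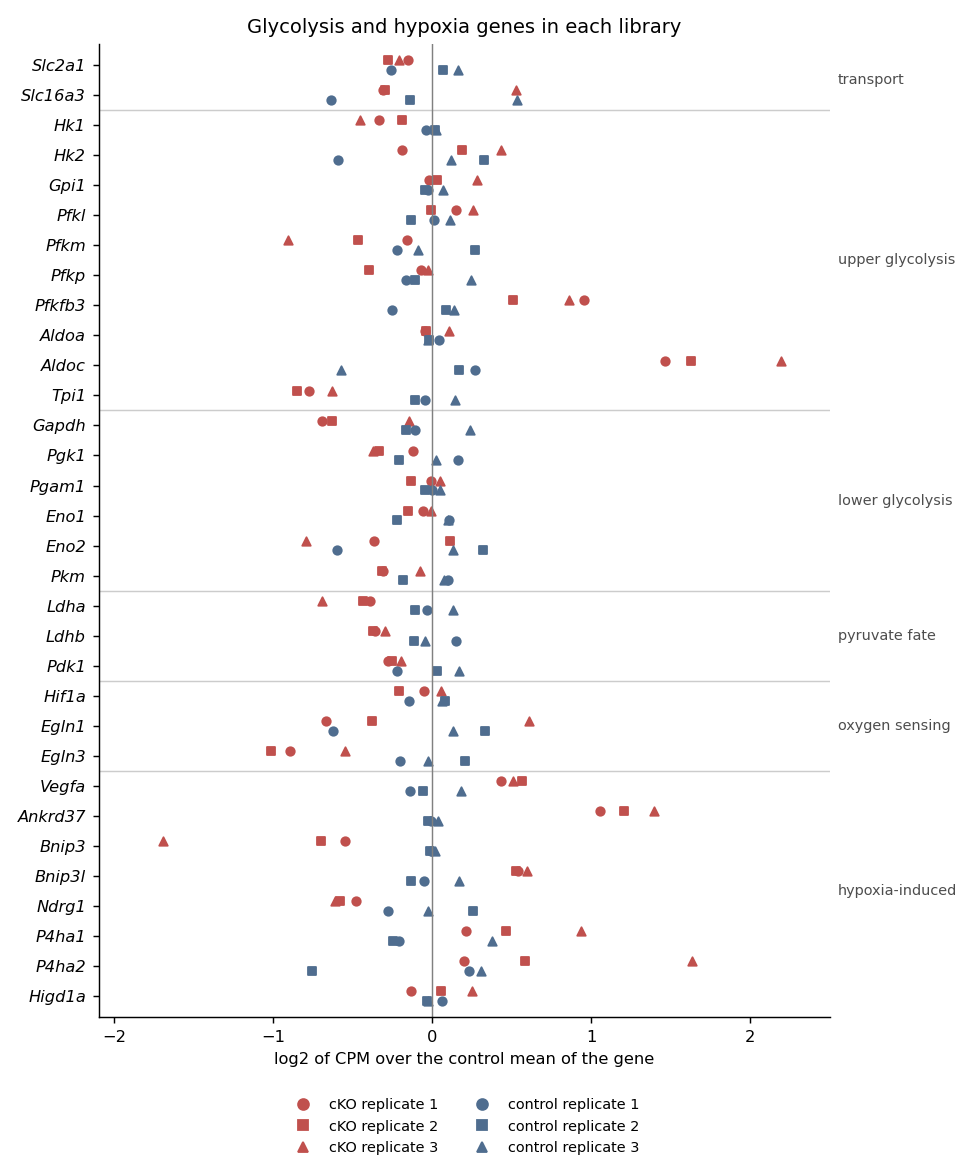
Level of each tested member in each library as log2 of its CPM over the mean of the 3 control libraries, with red points for cKO and blue for control. The cKO points of Aldoc, Ankrd37, Pfkfb3, Bnip3l and Vegfa lie right of every control point, and those of Tpi1, Ldha, Ldhb, Bnip3, Ndrg1, Hk1 and Egln3 lie left of them.

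Ash2l itself had 451, 292 and 214 counts in cKO replicates 1, 2 and 3, against 1933, 1853 and 1624 counts in control replicates 1, 2 and 3. Library totals were 9620235 to 9860475 counts in cKO and 10359475 to 10538314 in control. In cKO replicate 3, 1453 of 11738 genes with more than 10 counts in every other library were listed at 0 (12.4%), while none of the 32 members above that level was. This library correlated with the others at 0.734 to 0.809 in log2 CPM. The highest correlation of every other library was 0.969 to 0.971. A count above 0 therefore does not show that the level of a member in cKO replicate 3 is unaffected. The summed level of 13 ureteric epithelium markers was 5682 to 6307 CPM in cKO and 9744 to 10824 CPM in control, with 5 of 13 falling and none rising. Epcam and Calb1, 2 of these 13 markers, were detected in every library. Epcam was at 818 to 1001 CPM in cKO and 1353 to 1470.2 CPM in control. Calb1 was at 2181 to 2274 CPM in cKO and 3247 to 4023 CPM in control. Both fell: Epcam had a log2 fold change of -0.61 ± 0.0983 SE, edgeR adjusted p = 0.0180, and Calb1 one of -0.71 ± 0.0964 SE, edgeR adjusted p = 0.0114. The summed level of 7 nephron epithelium and podocyte markers was 33.6 to 45.9 CPM in cKO and 12.3 to 18.8 CPM in control, and edgeR called none of the 4 tested, while 2 had an unadjusted p under 0.05 and 2 rose in DESeq2. That of 5 nephron progenitor markers was 18.9 to 20.8 CPM in cKO and 7.36 to 9.87 CPM in control, with none of 2 called in edgeR, 1 at an unadjusted p under 0.05 and 1 risen in DESeq2. Endothelial and stromal markers summed to at most 21.5 CPM in any library, and macrophage markers to 39.7 to 72.0 CPM in cKO and 42.5 to 72.2 CPM in control. Erythroid markers summed to 405 CPM in control replicate 3 and to at most 36.7 CPM elsewhere. The 10 genes of the dissociation response summed to 6829 CPM in control replicate 1 and to between 12358 and 14313 CPM in the other libraries. Among them Atf3, a stress-induced transcription factor, rose, with 2246, 1667 and 1519.5 CPM in the cKO libraries, against 91.0, 348 and 365 CPM in the control libraries in replicate order (log2 fold change 2.76 ± 0.511 SE, edgeR adjusted p = 0.0282, and over the libraries left out between 0.0337 and 0.101 and under 0.05 in 1 of 6 fits). Hspa1a, a heat shock protein gene, fell (log2 fold change -1.30 ± 0.271 SE, edgeR adjusted p = 0.0399, and over the libraries left out between 0.0428 and 0.151 and under 0.05 in 2 of 6 fits). Reads of the Y-linked gene Ddx3y were at 0 in every cKO library and at 392 to 1044 counts in control, so that the sex of the embryos and genotype cannot be told apart. The part of these differences in the results was not tested.

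Promoters are shown for the 2 rising and the 2 falling members with the smallest p, as the upstream sequences of genes that moved in opposite directions. They are the RefSeq windows of build GRCm38.p6 from 250 bases before to 50 bases after the annotated start, 5′ to 3′ on the strand of the gene, at the outermost start where RefSeq lists several. Capitals mark ACGTG or GCGTG on either strand, the core of the hypoxia response element bound by HIF. The windows are chr8:45999801-46000100 on the minus strand (Ankrd37), chr11:78322823-78323122 on the plus strand (Aldoc), chr6:124814109-124814408 on the minus strand (Tpi1) and chr7:46845554-46845853 on the plus strand (Ldha).
Ankrd37: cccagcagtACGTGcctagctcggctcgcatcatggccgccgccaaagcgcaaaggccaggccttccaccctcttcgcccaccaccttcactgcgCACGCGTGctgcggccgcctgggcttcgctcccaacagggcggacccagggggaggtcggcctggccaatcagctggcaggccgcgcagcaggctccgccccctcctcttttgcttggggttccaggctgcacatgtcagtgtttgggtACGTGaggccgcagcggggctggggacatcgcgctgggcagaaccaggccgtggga
Aldoc: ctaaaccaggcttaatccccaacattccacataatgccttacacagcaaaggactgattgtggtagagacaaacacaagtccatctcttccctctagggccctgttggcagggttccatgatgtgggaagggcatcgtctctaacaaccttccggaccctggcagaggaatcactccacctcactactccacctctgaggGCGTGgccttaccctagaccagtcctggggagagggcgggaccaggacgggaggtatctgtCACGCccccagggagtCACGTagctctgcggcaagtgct
Tpi1: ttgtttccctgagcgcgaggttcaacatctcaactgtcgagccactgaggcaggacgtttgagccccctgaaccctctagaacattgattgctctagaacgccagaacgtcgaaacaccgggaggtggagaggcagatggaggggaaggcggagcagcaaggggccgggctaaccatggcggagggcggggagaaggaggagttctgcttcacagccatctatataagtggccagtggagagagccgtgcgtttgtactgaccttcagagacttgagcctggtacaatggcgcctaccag
Ldha: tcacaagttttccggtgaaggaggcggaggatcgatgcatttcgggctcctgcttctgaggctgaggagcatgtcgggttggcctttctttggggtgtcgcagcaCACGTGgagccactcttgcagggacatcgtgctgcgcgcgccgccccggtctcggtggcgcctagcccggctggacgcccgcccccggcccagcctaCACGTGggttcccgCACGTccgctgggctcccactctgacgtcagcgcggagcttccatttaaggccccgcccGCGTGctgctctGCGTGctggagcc
The window of Ankrd37 held 4 matches, that of Aldoc 3, that of Ldha 7 and that of Tpi1 none. Both strands were counted, so that CACGTG, where ACGTG and its complement overlap, gives 2 matches. Of 31 members with a window, 24 held at least 1 match (77.4%), against 63.2% of the 10463 tested genes with a window and 43.8% of all 27025 genes that have a RefSeq promoter window. The 24 were all 3 of the risen members with a window, 1 of 2 fallen members, 19 of 25 members that were not called, and the untested Car9. Bnip3l and Ndrg1 have no window. A match is a description of letters and no evidence of binding.

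Values per library are given in the order of replicates 1, 2 and 3. Among the transporters, Slc2a1, which encodes the glucose transporter GLUT1, had 358, 327 and 344 CPM in the cKO libraries, against 332, 416 and 445 CPM in the control libraries. The groups overlapped, because control replicate 1 lay as low as the cKO libraries, and the log2 fold change was -0.21 ± 0.125 (SE), with an edgeR adjusted p of 0.376. Its 95% interval ran from -0.51 to 0.085. Slc16a3, the lactate exporter MCT4, was at 32.9 ± 11.8 CPM in cKO and 32.3 ± 13.3 CPM in control (SD, n = 3 each), with an interval from -0.89 to 0.95. Neither transporter was called under any alternative in which it was tested.

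In the upper part of glycolysis, where glucose is phosphorylated and split, 2 of 10 members rose, 1 fell and 7 were not called. Over all genes tested 3.52% rose and 3.59% fell, and the members of a role were not tested as a set. Aldoc, the aldolase of brain and other tissues that splits the phosphorylated sugar, had 53.8, 60.2 and 89.3 CPM in the cKO libraries, against 23.5, 21.9 and 13.1 CPM in the control libraries. Every cKO library lay above every control, and cKO replicate 3 was the highest. The log2 fold change was 1.80 ± 0.313 (SE), or 3.48-fold, with an edgeR adjusted p of 0.0233. It was 1.54 ± 0.229 (SE, edgeR adjusted p = 0.000267) without cKO replicate 3. Without each library in turn the edgeR adjusted p of Aldoc lay between 0.000267 and 0.0985 and under 0.05 in 2 of 6 fits. Aldoa, the main aldolase, was at 1252 ± 75.1 CPM in cKO and 1245 ± 32.6 CPM in control (SD, n = 3 each), and its 95% interval ran from -0.18 to 0.20 on the log2 scale.

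Pfkfb3 makes the sugar bisphosphate that activates phosphofructokinase, the rate-setting enzyme of the pathway. It had 150.2, 110.3 and 141 CPM in the cKO libraries, against 65.0, 82.3 and 85.4 CPM in the control libraries. The cKO libraries again lay above every control, and the log2 fold change was 0.79 ± 0.172 (SE), or 1.72-fold, with an edgeR adjusted p of 0.0453. Its edgeR adjusted p without each library in turn lay between 0.00329 and 0.163 and under 0.05 in 1 of 6 fits. The phosphofructokinase genes themselves were not called: the log2 fold changes of Pfkl, Pfkm and Pfkp were 0.14 (SE 0.106), -0.48 (SE 0.254) and -0.16 (SE 0.248).

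Tpi1, the triosephosphate isomerase that interconverts the products of aldolase, had 473, 449 and 523 CPM in the cKO libraries, against 783, 750.5 and 896 CPM in the control libraries. No cKO library reached the lowest control. Its log2 fold change was -0.75 ± 0.105 (SE), with an edgeR adjusted p of 0.0124. It was -0.82 ± 0.110 (SE, edgeR adjusted p = 0.000116) without cKO replicate 3. With each library left out in turn the edgeR adjusted p of Tpi1 lay between 0.000116 and 0.0657 and under 0.05 in 3 of 6 fits. The entry enzymes were not called. Hk1, the hexokinase that commits glucose to metabolism, was at 129.9 ± 11.7 CPM in cKO and 163 ± 3.87 CPM in control (SD, n = 3 each), with all cKO libraries below the controls but an edgeR adjusted p of 0.132. Hk2, its inducible paralog, had a log2 fold change of 0.16 with an SE of 0.358, and Gpi1, the isomerase of glucose phosphate, one of 0.10 with an SE of 0.107.

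**Figure D2:**
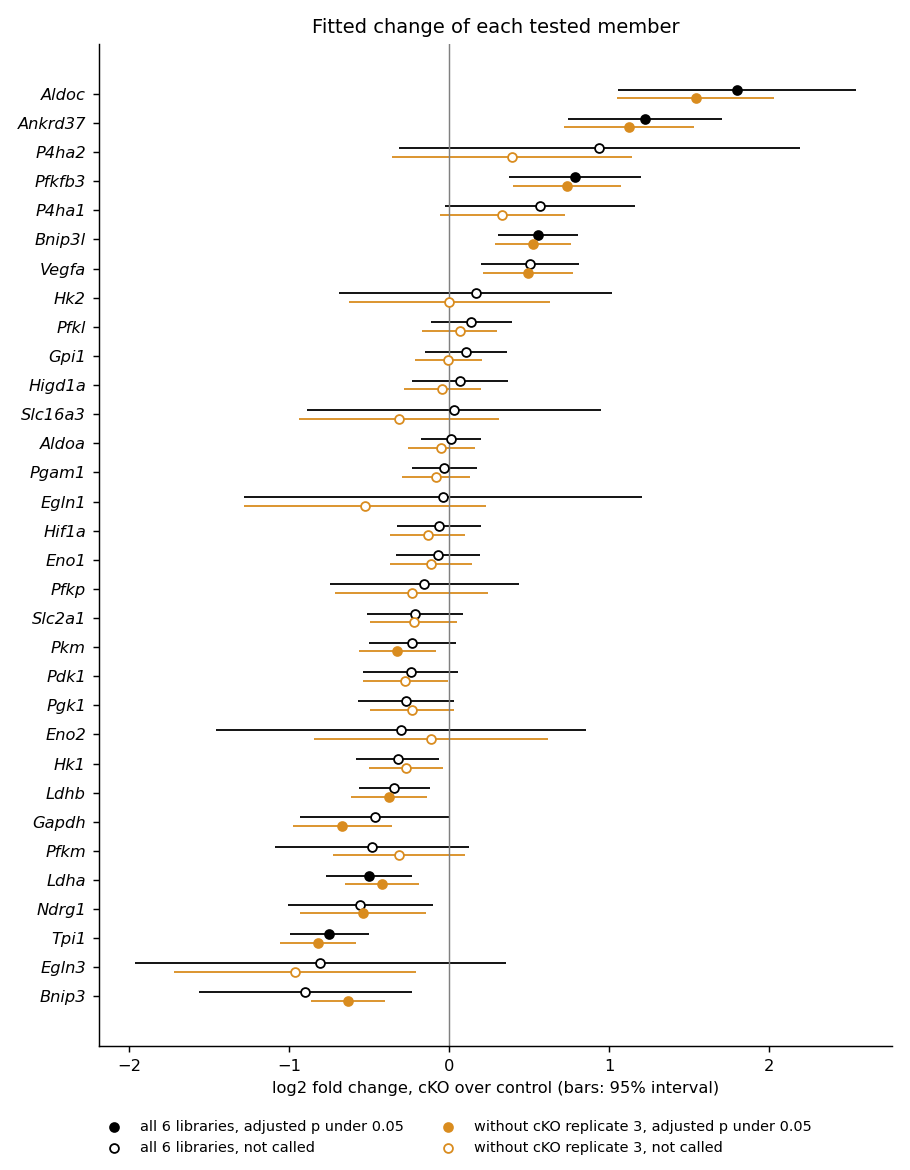
Fitted log2 fold change of cKO over control with its 95% interval for each tested member, in black from 6 libraries and in orange without cKO replicate 3, with filled points for an adjusted p under 0.05. Aldoc (1.80) and Ankrd37 (1.22) stand at the top, Bnip3 (-0.90) at the bottom, and most members lie between.

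In the lower part, where triose phosphates are turned to pyruvate, all 6 members had negative fold changes between -0.47 (Gapdh) and -0.031 (Pgam1), and edgeR called none in 6 libraries, with 0 at an unadjusted p under 0.05. DESeq2 called 0, and limma with library weights called 2. The sign of Pgam1 turned positive (0.012) with library totals in place of TMM factors. Gapdh, the dehydrogenase often used as a reference gene, had 71.3, 74.5 and 104 CPM in the cKO libraries, against 107, 103 and 136 CPM in the control libraries. The groups overlapped through cKO replicate 3, which lay just above the lowest control. The log2 fold change was -0.47 ± 0.197 (SE), with an edgeR adjusted p of 0.218. Gapdh fell without cKO replicate 3 (-0.67 ± 0.144 SE, edgeR adjusted p = 0.00356). With each library left out the edgeR adjusted p of Gapdh lay between 0.00356 and 0.552 and under 0.05 in 1 of 6 fits. Pkm, the pyruvate kinase of most tissues, had 2349, 2337 and 2766 CPM in the cKO libraries, against 3119.8, 2559.6 and 3066 CPM in the control libraries. Here too cKO replicate 3 lay inside the control range. Pkm fell without cKO replicate 3 (-0.32 ± 0.113 SE, edgeR adjusted p = 0.0456), and with each library left out its edgeR adjusted p lay between 0.0456 and 0.588 and under 0.05 in 1 of 6 fits.

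Pgk1, which makes the first ATP of the pathway, was at 352 ± 34.3 CPM in cKO and 425 ± 54.4 CPM in control (SD, n = 3 each), with a log2 fold change of -0.27 ± 0.127 (SE, edgeR adjusted p = 0.263). Eno1, the main enolase, was at 3147 ± 160.4 CPM in cKO and 3309.8 ± 415 CPM in control (SD, n = 3 each), and its 95% interval ran from -0.33 to 0.19 on the log2 scale. Pgam1, the mutase before enolase, had an interval from -0.23 to 0.17, and Eno2, the neuronal enolase, one from -1.46 to 0.86. RefSeq names 3 pseudogenes after Gapdh, 3 after Ldha, 2 each after Aldoa, Pgk1 and Pgam1, and 1 each after Ldhb and Bnip3l. Eno1b, a close copy of Eno1, had 868 to 1200 counts in cKO and 880 to 1076 in control. The sources used here do not give how the counting treated reads that match such copies, and the levels of these genes are uncertain for that reason.

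At the branch where pyruvate is used, all 3 members had lower means in cKO and 1 was called, where 3.59% of all genes fell. Ldha, the lactate dehydrogenase subunit that favours lactate production, had 1489, 1444 and 1206 CPM in the cKO libraries, against 1910.1, 1810.0 and 2138 CPM in the control libraries. Every cKO library was below every control. The log2 fold change was -0.50 ± 0.113 (SE), with an edgeR adjusted p of 0.0484, close to the threshold, and -0.42 ± 0.107 (SE, edgeR adjusted p = 0.00979) without cKO replicate 3. The edgeR adjusted p without each library in turn lay between 0.00979 and 0.185 and under 0.05 in 1 of 6 fits. Ldhb, the subunit that favours the return of lactate to pyruvate, had 1279, 1265 and 1335 CPM in the cKO libraries, against 1820.0, 1512 and 1588 CPM in the control libraries. Its groups did not overlap either, but its log2 fold change was -0.34 ± 0.0931 (SE), with an edgeR adjusted p of 0.0785. Ldhb fell without cKO replicate 3 (-0.38 ± 0.109 SE, edgeR adjusted p = 0.0198), with edgeR adjusted p over the libraries left out between 0.0198 and 0.215 and under 0.05 in 1 of 6 fits. Pdk1, the kinase that closes pyruvate dehydrogenase, was at 150.0 ± 4.44 CPM in cKO and 177 ± 23.9 CPM in control (SD, n = 3 each), with a log2 fold change of -0.24 ± 0.125 (SE, edgeR adjusted p = 0.313).

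Summed over Ldha, Ldhb and Pdk1, the level was 2914, 2858 and 2696 CPM in cKO, against 3882, 3504 and 3926 CPM in control. The sum is set by the dehydrogenase genes. Over all 33 members the sum was 14346, 13852 and 15116 CPM in cKO, against 16639, 14877 and 17079 CPM in control, and these ranges overlapped. Over the 9 hypoxia-induced members the sum was 952, 988 and 1028 CPM in cKO, against 831, 825 and 935 CPM in control, with no overlap. The gap was narrow, between 952 CPM in cKO replicate 1 and 935 CPM in control replicate 3. Without Bnip3l the sum was 585, 625 and 646 CPM in cKO, against 588, 595 and 651 CPM in control, which overlap. The removal of other members was not tried, so the separation is not shown to rest on Bnip3l alone.

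The 3 oxygen-sensing members were not called by edgeR, DESeq2 or limma with library weights, and 0 had an unadjusted p under 0.05 in edgeR. Hif1a, the regulated subunit of the factor, had 291, 261 and 314 CPM in the cKO libraries, against 273, 318 and 314 CPM in the control libraries. The groups overlapped, and its 95% interval ran from -0.33 to 0.20 on the log2 scale. Egln1, the main oxygen-dependent hydroxylase acting on HIF1A, was at 11.2 ± 5.55 CPM in cKO and 11.5 ± 3.63 CPM in control (SD, n = 3 each), with 1 cKO library, replicate 3, above every control. Egln3, a hydroxylase gene that HIF itself induces, was below every control in cKO, at 5.76 ± 0.999 CPM in cKO and 10.1 ± 1.45 CPM in control (SD, n = 3 each), with a log2 fold change of -0.81 ± 0.488 (SE, edgeR adjusted p = 0.390). No library exceeded 17.6 CPM for either gene, and the intervals were wide, from -1.28 to 1.21 for Egln1 and from -1.97 to 0.36 for Egln3.

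Of 8 tested genes known to be induced by low oxygen, 2 rose, none fell and 6 were not called, where 3.52% of all genes rose. At an unadjusted p under 0.05 in edgeR 2 were lower, and DESeq2 called 1 of them. Ankrd37, a small ankyrin repeat protein gene that HIF induces directly, had 39.6, 44.1 and 50.1 CPM in the cKO libraries, against 18.9, 18.7 and 19.6 CPM in the control libraries. The control libraries lay within 1 CPM of each other and every cKO library was far above them. The log2 fold change was 1.22 ± 0.203 (SE), or 2.34-fold, with an edgeR adjusted p of 0.0195. It was 1.12 ± 0.189 (SE, edgeR adjusted p = 0.000681) without cKO replicate 3. The edgeR adjusted p without each library in turn lay between 0.000681 and 0.108 and under 0.05 in 2 of 6 fits.

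Bnip3 and Bnip3l encode related receptors of the outer mitochondrial membrane that mark mitochondria for removal. Their fold changes had opposite signs. Bnip3l had 367, 363 and 382 CPM in the cKO libraries, against 243, 230.0 and 284 CPM in the control libraries. All cKO libraries were above all controls, and Bnip3l was called as higher, at a log2 fold change of 0.55 ± 0.105 (SE), with an edgeR adjusted p of 0.0296. The edgeR adjusted p of Bnip3l without each library in turn lay between 0.00300 and 0.131 and under 0.05 in 1 of 6 fits. BNIP3L also clears mitochondria from maturing red cells. Control replicate 3, the library with the erythroid reads, had the highest Bnip3l level of the controls, and cKO replicate 3, with erythroid markers at 0, had the highest of all. A part of red cells in the Bnip3l values was not tested.

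Bnip3 had 140.5, 126 and 63.5 CPM in the cKO libraries, against 205, 204 and 208 CPM in the control libraries. The controls were nearly equal, every cKO library was lower, and cKO replicate 3 was the lowest by a wide margin. With 6 libraries Bnip3 was not called (log2 fold change -0.90 ± 0.279 SE, edgeR adjusted p = 0.112). It fell without cKO replicate 3 (-0.63 ± 0.106 SE, edgeR adjusted p = 0.000661), with edgeR adjusted p over the libraries left out between 0.000661 and 0.297 and under 0.05 in 1 of 6 fits. Vegfa, the growth factor that attracts vessels, had 116, 127 and 122 CPM in the cKO libraries, against 77.7, 82.5 and 97.2 CPM in the control libraries. It lay above every control in each cKO library and missed the threshold with 6 libraries (log2 fold change 0.50 ± 0.129 SE, edgeR adjusted p = 0.0682). Vegfa rose without cKO replicate 3 (0.49 ± 0.131 SE, edgeR adjusted p = 0.0128), with edgeR adjusted p over the libraries left out between 0.0128 and 0.262 and under 0.05 in 1 of 6 fits.

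Ndrg1, a stress-induced gene of epithelial differentiation, had 41.1, 38.4 and 37.4 CPM in the cKO libraries, against 47.3, 68.3 and 56.3 CPM in the control libraries. The cKO libraries were tightly grouped below a wide control range. Its log2 fold change was -0.56 ± 0.191 (SE), with an edgeR adjusted p of 0.139, and it fell without cKO replicate 3 (-0.54 ± 0.183 SE, edgeR adjusted p = 0.0411), with edgeR adjusted p over the libraries left out between 0.0411 and 0.433 and under 0.05 in 1 of 6 fits. P4ha1 and P4ha2, subunits of the enzyme that hydroxylates collagen, were not called (log2 fold change 0.57 ± 0.249 SE, edgeR adjusted p = 0.238 for P4ha1, and log2 fold change 0.94 ± 0.526 SE, edgeR adjusted p = 0.353 for P4ha2). In both, cKO replicate 3 was the highest library. Higd1a, a mitochondrial stabiliser, had a log2 fold change of 0.067 with a 95% interval from -0.23 to 0.37. Car9, a carbonic anhydrase that HIF induces strongly in many tumours, had 17, 16 and 0 counts in cKO, against 4, 4 and 0 counts in control. The libraries at 0 can hold up to 0.306 CPM in cKO and 0.285 CPM in control, from a floor of 3 counts, which covers counting error only. In cKO replicate 3, 12.4% of genes with more than 10 counts in every other library were at 0, so the bound may not hold there. Without cKO replicate 3 Car9 was tested and not called (log2 fold change 2.64 ± 1.11 SE, edgeR adjusted p = 0.0931).

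**Figure D3:**
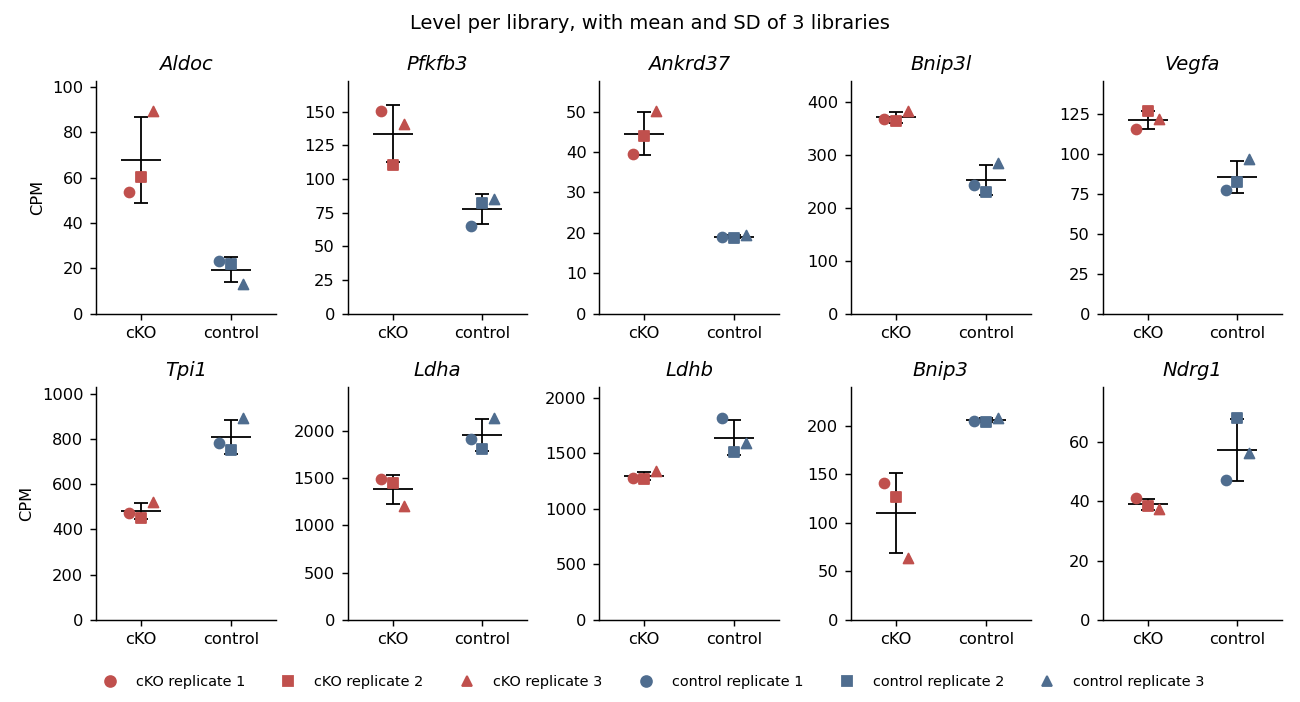
CPM of 10 members in each library, with the mean and SD of 3 libraries in black, cKO left of control, and axes that start at 0. The top row holds the members with every cKO library above every control, and the bottom row 5 of the 7 members below.

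Where paralogs share a step, the share of each in the summed FPKM (the authors' deposited values, scaled by gene length and library size) was compared over libraries. With 3 against 3 libraries a two-sided exact permutation test cannot go below p = 0.1, and adjusted over the 8 families no share can be called. Bnip3 made up 47.1%, 44.8% and 27.9% of Bnip3 and Bnip3l in cKO, against 66.2%, 67.3% and 63.0% in control. The groups did not overlap, and the means were 39.9% ± 10.5 in cKO and 65.5% ± 2.21 in control (SD, n = 3 each, exact permutation p = 0.1, Benjamini-Hochberg adjusted p = 0.2). In FPKM Bnip3 was thus the larger of the pair in every control and the smaller in every cKO library. By counts alone, which favour the longer Bnip3l, the share of Bnip3 was 22.6% in cKO and 45% in control, the smaller in both. The change of order thus rests on the length in the deposited FPKM, 2.32 times as long for Bnip3l as for Bnip3. The lower share in cKO is seen either way.

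Aldoc averaged 4.14% of aldolase FPKM in cKO, against 1.24% in control, so that Aldoa still made up at least 94.9% in every library. Hk1 made up 87.9% of Hk1 and Hk2 in cKO and 91.2% in control, with overlapping libraries. Pfkl made up 92.9% of the phosphofructokinase FPKM in cKO and 90.1% in control, and Eno1 over 99% of the enolase FPKM in both groups. The groups did not overlap for Pfkl, nor for Egln1, which made up 61.2% ± 7.56 of Egln1 and Egln3 in cKO and 49.2% ± 5.61 in control (SD, n = 3 each, exact permutation p = 0.1). Both gaps were narrow, 91.8% in cKO replicate 1 against 91.4% in control replicate 1 for Pfkl. For Egln1 it was 53.9% in cKO replicate 1 against 52.7% in control replicate 3. The Egln1 share was highest in cKO replicate 3 (69.0%), and both Egln genes had few counts. Ldha made up 20.7% of lactate dehydrogenase FPKM in cKO and 22.6% in control, with overlap. That value rests on the length in the deposited FPKM, which is 4.10 times as long for Ldha as for Ldhb, and by counts the shares of Ldha were 51.5% in cKO and 54.4% in control.

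**Figure D4:**
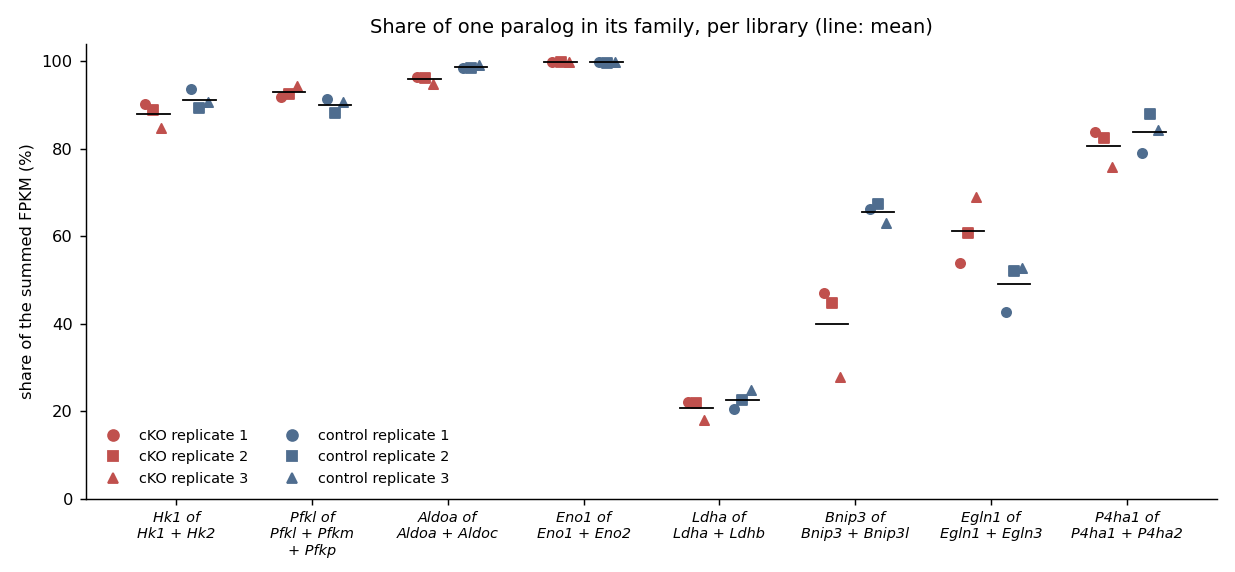
Share of the first-named paralog in the summed FPKM of its family in each library, in percent, with red points for cKO, blue for control and a line at each mean. Bnip3 shows the widest gap, 39.9% in cKO and 65.5% in control.

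Levels between genes are set side by side here in FPKM, which rests on the deposited gene lengths. Reads matching pseudogenes add the uncertainty given above, so the order is approximate. The order of Ldhb and Ldha depends on those lengths, as by counts Ldha made up 54.4% of the pair in control. Eno1 was highest, with a mean of 1624 FPKM in control, followed by Ldhb at 1238 FPKM, Tpi1 at 542 FPKM and Aldoa at 529 FPKM. Tpi1 and Aldoa did not differ beyond the spread of the control libraries, from 509 to 593 FPKM for Tpi1 and from 514 to 544 FPKM for Aldoa. In cKO Tpi1 lay at 313 to 364 FPKM, below Aldoa at 516 to 590 FPKM in every library. Gapdh, at 65.3 FPKM in control, ranked below Bnip3 at 115 FPKM in these values. RefSeq names 3 pseudogenes after Gapdh, and how reads matching them were counted is not known, so its rank is uncertain. Of the members that rose, Bnip3l ranked 15 of 33 with a control mean of 60.8 FPKM. Pfkfb3 ranked 23 with 12 FPKM, Ankrd37 ranked 25 with 9.19 FPKM and Aldoc ranked 26 with 6.69 FPKM. The fallen members Tpi1 and Ldha were among the highest 6.

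Other genes of these pathways were followed in 8 lists of 169 genes, of which 152 were tested and none is a member. In all 10 rose and 5 fell, or 9.87%, where 7.11% of all genes were called in either direction. Without cKO replicate 3, 30 rose and 22 fell of 154, or 33.8%, where 28.5% of all genes were called. For the single lists, the shares over all genes were 3.52% risen and 3.59% fallen with 6 libraries, and no list was tested as a set. Genes named from each list are among the 3 with the smallest p, apart from Fam162a.

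Among 15 tested glucose and monocarboxylate transporters, 1 rose and 1 fell. Slc2a3, the high-affinity glucose transporter GLUT3, had 47.2, 31.8 and 42.7 CPM in the cKO libraries, against 1.18, 2.47 and 2.15 CPM in the control libraries. It was the member of any of these lists with the largest called change, 4.38 ± 0.407 (SE), or 20.8-fold, with an edgeR adjusted p of 0.00570. It stayed called whichever library was left out, with an edgeR adjusted p between 1.28e-06 and 0.0443 and under 0.05 in 6 of 6 fits. Slc16a1, the lactate transporter MCT1, had 51.2, 45.6 and 68.5 CPM in the cKO libraries, against 117, 119 and 138 CPM in the control libraries. It fell by 1.18 on the log2 scale (SE 0.184, edgeR adjusted p = 0.0168), with an edgeR adjusted p over the libraries left out between 1.12e-05 and 0.0927 and under 0.05 in 1 of 6 fits. Slc2a5, the fructose transporter, was at 8.67 ± 8.23 CPM in cKO and 0.384 ± 0.326 CPM in control (SD, n = 3 each) and was not called (log2 fold change 4.45 ± 1.21 SE, edgeR adjusted p = 0.0795).

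Of 19 other glycolytic enzymes and isozymes 2 rose and none fell, with 2 lower at an unadjusted p under 0.05 in edgeR and 2 fallen in DESeq2. Pgam2, the muscle mutase, had 30.2, 34.7 and 39.4 CPM in the cKO libraries, against 6.28, 6.09 and 5.77 CPM in the control libraries, and its log2 fold change was 2.52 ± 0.275 (SE), with an edgeR adjusted p of 0.00649. Every cKO library was clear of every control. Eno3, the muscle enolase, was not called (log2 fold change -0.51 ± 0.122 SE, edgeR adjusted p = 0.0568). Without single libraries the edgeR adjusted p of Pgam2 lay between 1.36e-05 and 0.0519 and under 0.05 in 5 of 6 fits.

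Among 16 genes of pyruvate entry into mitochondria 2 rose and none fell, with 0 lower at an unadjusted p under 0.05 in edgeR and 0 fallen in DESeq2. Mpc1, a subunit of the mitochondrial pyruvate carrier, had 65.4, 58.8 and 78.5 CPM in the cKO libraries, against 42.5, 33 and 29.8 CPM in the control libraries (log2 fold change 0.94 ± 0.208 SE, edgeR adjusted p = 0.0459). Pdp1, the phosphatase that reopens pyruvate dehydrogenase, had 66.6, 47.6 and 66.8 CPM in the cKO libraries, against 30.2, 29.9 and 28.7 CPM in the control libraries (log2 fold change 1.03 ± 0.198 SE, edgeR adjusted p = 0.0314). Pcx, pyruvate carboxylase, was not called (log2 fold change 0.99 ± 0.247 SE, edgeR adjusted p = 0.0639). Over the libraries left out the edgeR adjusted p lay between 0.00470 and 0.193 and under 0.05 in 1 of 6 fits for Mpc1 and between 0.00193 and 0.150 and under 0.05 in 2 of 6 fits for Pdp1.

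Of 19 genes of gluconeogenesis and glycogen, 1 rose and 2 fell. Gbe1, the glycogen branching enzyme, was at 66.7 ± 10.7 CPM in cKO and 35.7 ± 4.45 CPM in control (SD, n = 3 each), with a log2 fold change of 0.90 ± 0.192 (SE, edgeR adjusted p = 0.0417). Pygl and Pygb, the liver and brain forms of glycogen phosphorylase, both fell. Pygl was at 56.6 ± 6.22 CPM in cKO and 109 ± 4.11 CPM in control (SD, n = 3 each), with a log2 fold change of -0.95 ± 0.135 (SE, edgeR adjusted p = 0.0126). Pygb was at 75.2 ± 20.4 CPM in cKO and 154 ± 26.6 CPM in control (SD, n = 3 each), with a log2 fold change of -1.03 ± 0.233 (SE, edgeR adjusted p = 0.0490). Of 10 genes of the pentose phosphate pathway only Tkt, transketolase, was called, at 221 ± 7.65 CPM in cKO and 336 ± 22.4 CPM in control (SD, n = 3 each), with a log2 fold change of -0.60 ± 0.0909 (SE, edgeR adjusted p = 0.0146). Pgd (0.44, SE 0.172) and Prps1 (0.61, SE 0.162) were not. Without single libraries the edgeR adjusted p of these called genes lay between 0.00464 and 0.186 and under 0.05 in 1 of 6 fits for Gbe1, between 0.000215 and 0.0788 and under 0.05 in 2 of 6 fits for Pygl, between 0.00129 and 0.184 and under 0.05 in 1 of 6 fits for Pygb and between 0.000644 and 0.0839 and under 0.05 in 1 of 6 fits for Tkt.

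Of 17 genes of oxygen sensing and HIF function 1 rose. Cited2, a HIF target whose product competes with HIF1A for the coactivators CBP and p300, had 1415, 1304 and 1969 CPM in the cKO libraries, against 267, 487 and 445 CPM in the control libraries. Every cKO library exceeded every control, and the log2 fold change was 1.97 ± 0.265 (SE), or 3.91-fold, with an edgeR adjusted p of 0.0112. Elob (0.50, SE 0.146), a partner of the ligase that degrades HIF1A, and Siah1a (0.46, SE 0.151) were not called. Of 35 further hypoxia-induced genes 3 rose and 1, Fam162a, fell (log2 fold change -0.51 ± 0.107 SE, edgeR adjusted p = 0.0405, and over the libraries left out between 0.00337 and 0.178 and under 0.05 in 1 of 6 fits). Edn1, the vasoconstrictor endothelin, had 61.7, 58.1 and 52.0 CPM in the cKO libraries, against 7.85, 10.1 and 11 CPM in the control libraries (log2 fold change 2.57 ± 0.231 SE, edgeR adjusted p = 0.00567). Adm, the vasodilator adrenomedullin, had 272, 225 and 192 CPM in the cKO libraries, against 29.6, 64.0 and 63.5 CPM in the control libraries (log2 fold change 2.13 ± 0.315 SE, edgeR adjusted p = 0.0143), and Ero1a, an oxidase of the endoplasmic reticulum, was at 121 ± 13.6 CPM in cKO and 58.8 ± 2.48 CPM in control (SD, n = 3 each), with a log2 fold change of 1.05 ± 0.134 (SE, edgeR adjusted p = 0.00940).

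The edgeR adjusted p without each library in turn lay between 1.58e-06 and 0.0419 and under 0.05 in 6 of 6 fits for Edn1, between 0.000133 and 0.0639 and under 0.05 in 3 of 6 fits for Ero1a, between 0.00211 and 0.0644 and under 0.05 in 5 of 6 fits for Cited2 and between 0.00877 and 0.0654 and under 0.05 in 3 of 6 fits for Adm. Cited2 and Adm were lowest in control replicate 1, the library with the lowest dissociation genes (6829 CPM, against 12383 and 13730 CPM in the other controls). So were Pfkfb3, Vegfa, Edn1 and Slc2a3, while Aldoc, Ankrd37, Bnip3l, Pgam2, Mpc1 and Pdp1 were lowest in another control. None of 21 regulators of glycolytic transcription was called in edgeR, while 2 had an unadjusted p under 0.05 and DESeq2 called 2. Myc, a general driver of glycolytic genes, had 405, 354 and 479 CPM in the cKO libraries, against 75.8, 208 and 233 CPM in the control libraries. Its log2 fold change was 1.26 ± 0.393 (SE), with an edgeR adjusted p of 0.113, and it too was lowest in control replicate 1. Mycl (-0.55, SE 0.294) and Klf4 (2.23, SE 0.815) were not called with 6 libraries.

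**Figure D5:**
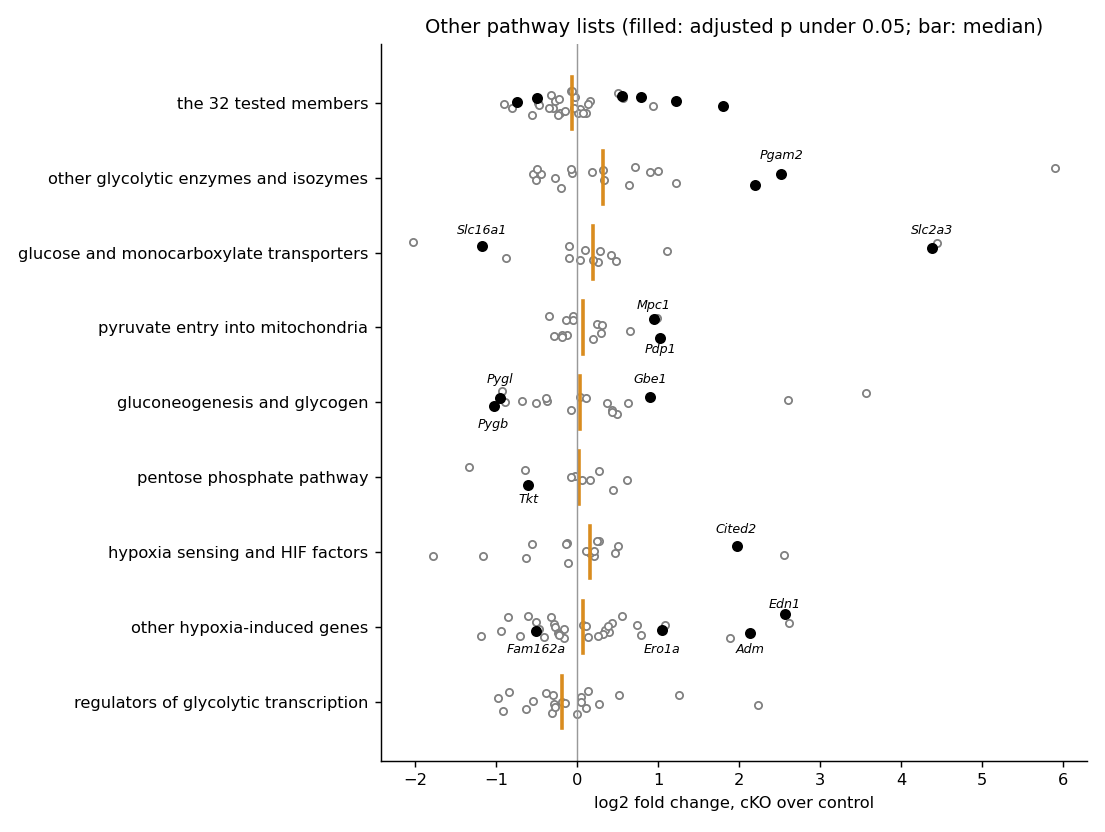
Log2 fold change of cKO over control for the 32 tested members and for the 8 other lists, 1 point a gene, filled where the adjusted p is under 0.05, with an orange bar at each median. Called genes stand on both sides of 0, with Slc2a3 (4.38) farthest right and Slc16a1 (-1.18) farthest left among them.

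The pathway annotation in the deposited tables groups the genes in another way. It puts 17 members in its term for glycolysis and gluconeogenesis, of which 54 genes were tested, and 4 rose and 4 fell (14.8%). It puts 20 members in its term for HIF signalling, of which 88 genes were tested, and 8 rose and 1 fell (10.2%). Both shares compare with 7.11% of all genes. Without cKO replicate 3 they were 36.4% and 34.1%, against 28.5% of all genes.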

How the data were processed

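Per the labels' protocols, total RNA of sorted cells was made into stranded mRNA libraries. The authors deposited raw read counts per gene and FPKM values, 1 column a library. Per the submitters' processing notes the tools were HTSeq, HISAT2, DESeq and Cufflinks, with no role or version given, and the genome build was GRCm39. The sources used here do not give the strand setting of the counting. The deposited FPKM equal the counts divided by 1 factor a gene and 1 a library, to a relative deviation of 2.21e-07. Counts were filtered with filterByExpr, scaled by TMM factors and tested with the robust quasi-likelihood test of edgeR 4.0.16 in R 4.3.3, with genotype as the only term and Benjamini-Hochberg adjustment over 13047 genes. The 95% intervals are not adjusted. The edgeR test, with and without the replicate block, was run on simulated counts. These held no library with extra zeros like cKO replicate 3, so the simulation does not show how the fits behave with such a library. Its outcome is not given here. Alternatives used DESeq2 1.42.0 and limma 3.58.1. The labels call the libraries biological replicates without naming separate embryos, so p-values cover the spread between these samples, part of which may be technical. The members and lists were chosen with earlier results of these data known. Values in every library are given for members called with 6 libraries or without cKO replicate 3, for Hif1a, Slc2a1 and Ldhb, and for Car9, the member with a library at 0. From each other list the 3 tested genes with the smallest p are named, except 1 gene that is not reported here, and Fam162a, Atf3 and Hspa1a were named after their values were seen.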

Additional observations from a re-analysis of the deposited data

How the results depend on the processing

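Leaving out 1 library at a time gave 121 to 3897 calls over all genes (928 with 6 libraries), 0 to 5 members that rose, 0 to 7 that fell, 2 to 52 calls in the other lists (15 with 6) and a member median of -0.19 to -0.016. DESeq2 called 2049 genes, with 31 calls in the other lists. Of 32 members, 5 rose and 4 fell (15.6% and 12.5%), where 1029 and 1020 of 13032 genes did. With library weights in limma, where cKO replicate 3 had a weight of 0.0685, 3337 genes were called. There 5 of 32 members rose and 7 fell (15.6% and 21.9%), where 1594 and 1743 of 13047 genes did. In that fit the member median was -0.18 and the other lists had 49 calls. On log2(FPKM + 1), which understates the change of low genes, 1465 genes were called. The cause of these differences was not tested. With other size factors, other filters and either FPKM scale, 4 members rose and 2 fell, as with 6 libraries in edgeR. Aldoa, Egln1, Gpi1, Hif1a, Higd1a, Hk2, Pgam1 and Slc16a3 changed sign under at least 1 alternative and were called under none, while the other tested members kept their sign under each alternative. The replicate numbers did not pair the libraries: same-numbered libraries correlated at -0.022, 0.025 and -0.0015 in their deviations from the group means, and only cKO replicate 2 correlated best with its own number. With the replicate number as a block in edgeR, 23 genes were called, 0 members rose, 0 fell and 0 genes of the other lists were called, with 6 members higher and 7 lower at an unadjusted p under 0.05. As the share of all genes at that unadjusted p in the block fit is not given, these member counts have no background. Depth limits Car9, Egln1, Egln3, Eno2, Hk2 and P4ha2, all at 20 CPM or under on average.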
